A study of Aspergillus nidulans with 48 samples.

Results

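Glycogen in *Aspergillus nidulans* is built and taken apart by the products of 4 genes described here, glycogen synthase (AN8010), the branching enzyme (AN2314), glycogen phosphorylase (AN1015) and the debranching enzyme (AN10060). They were taken by gene identifier from a table of 10988 genes. The study lists AN10060 as a putative α-amylase, and the name debranching enzyme is used for it here. All 4 passed the filter on low values in both cell types, and the lowest count of any of them in a library was 244 in mycelia and 741 in conidia. RNA was sequenced from surface cultures of strains deleted for *atfA* (Δ*atfA*), *atfB* (Δ*atfB*) or both genes (Δ*atfA*Δ*atfB*) and of the control THS30.3, called the reference strain in the labels. *atfA* and *atfB* encode bZIP-type transcription factors. The plates, kept at 37 °C, contained menadione sodium bisulfite (MSB), which generates superoxide, or were untreated. The labels print the MSB dose as 0.04 Mm, read here as mM. RNA came from young mycelia, collected before conidiophores formed according to the study, or from conidia recovered from the plates. Each cell type, strain and treatment made up 1 of 16 groups of 3 libraries, 48 in all. The study gives the age of the mycelial cultures as a range of hours and not for each group, so ages may differ between the groups compared. Each mutant is 1 strain, and since the label for the genotype of the double mutant gives *atfB* a second time in place of *atfA*, its genotype rests on the titles. The study calls the replicates of both cell types biological.

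Glycogen is a branched polymer of glucose that fungi store in hyphae and spores. Glycogen synthase lengthens its straight chains with glucose carried by UDP-glucose, and the branching enzyme moves a piece of a chain to a side position to start a new branch. Glycogen phosphorylase releases glucose 1-phosphate from chain ends and halts close to a branch point, which the debranching enzyme then takes away. The first pair of enzymes therefore serves synthesis and the second pair breakdown, and in fungal spores the stored sugar feeds germination.

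Library totals lay between 12974631 and 36314359 counts in mycelia and between 8426329 and 24958904 in conidia. The deleted *atfA* gene (AN2911) averaged 40.5 ± 23.7 RPKM in untreated Δ*atfA* conidia, against 511 ± 70.2 RPKM in untreated control conidia (SD, n = 3 each; RPKM is the reads per kilobase of gene, scaled to the library's total). In conidia, the untreated libraries that carry the Δ*atfB* label had 257 ± 50.9 RPKM of *atfB* (AN8643), against 307 ± 54.8 RPKM in control conidia, which does not match their label. Untreated Δ*atfA* conidia, in which *atfB* is not deleted, held 48.2 ± 7.55 RPKM of it. Δ*atfA*Δ*atfB* conidia held 2.25 ± 0.379 RPKM of *atfB* untreated and 2.44 ± 0.479 RPKM on MSB. In mycelia *atfB* was low, with group means of 0.651 to 3.28 RPKM. Untreated, Δ*atfB* held 0.771 ± 0.0981, Δ*atfA*Δ*atfB* 0.651 ± 0.232 and Δ*atfA* 1.57 ± 0.0601 RPKM of it, against 3.28 ± 0.481 RPKM in the control. The log2 fold change was −2.11 ± 0.24 in Δ*atfB* (edgeR adjusted p = 1.1e-05) and −2.28 ± 0.26 in Δ*atfA*Δ*atfB* (edgeR adjusted p = 1.9e-06). On MSB Δ*atfA*Δ*atfB* held 1.22 ± 0.0849 RPKM of *atfB*, against 1.46 ± 0.0823 RPKM in the control (log2 fold change −0.27 ± 0.25, edgeR adjusted p = 0.5). On MSB its level therefore does not check the double mutant's label. *atfA* was at 4.06 ± 0.525 RPKM in the same double mutant libraries, against 65.6 ± 8.88 RPKM in the control. Conidial replicates 1 and 2 are batch 1 and replicate 3 is batch 2, 2 separate experiments by the study's methods, and batch was a term of the conidial model. Of 11 conidiophore and conidium marker genes none was at 0 in any library, so mycelia were not free of them. Their summed level ranged from 34.7 to 1236 RPKM over the mycelial libraries and from 2885 to 57191 RPKM over the conidial libraries. In batch 2 of Δ*atfA* conidia this sum was 13352 RPKM on MSB and 2885 RPKM untreated, against 37329 and 23288 RPKM in the control libraries of the same batch. Single markers differed widely between these strains, so the sum does not measure cell content. Untreated, the marker *conJ* averaged 53.6 RPKM in Δ*atfA* conidia against 10871 RPKM in the control, and *catA* 1.48 against 1767 RPKM. Not all markers went this way, since *rodA* averaged 5662 against 4427 RPKM. RPKM is divided by the library total alone, while the edgeR fits also scaled each library by its relative log expression factor. This factor averaged 1.23 in untreated Δ*atfA* conidia and 0.704 in untreated control conidia, and in mycelia the group means of the factor lay between 0.976 and 1.04. Scaling by totals alone would raise the median log2 fold change of all genes by 0.80 in untreated Δ*atfA* against control conidia and by 0.66 on MSB. For Δ*atfA*Δ*atfB* against control conidia the same shift is 0.85 untreated and 0.70 on MSB, so fold changes below are relative to the typical gene. The split of all conidial calls moved with it, since in untreated Δ*atfA* against control conidia 1870 genes were higher and 2058 lower, and 4341 higher and 1116 lower with totals alone. A lower level of a transcript in bulk RNA cannot be told apart from fewer cells that hold it.

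Glycogen synthase was the steadiest of the 4 transcripts. Over the 8 mycelial groups its mean level differed by 1.83-fold between the highest and the lowest group, while the same range was 11.5-fold for the branching enzyme, 16.04-fold for glycogen phosphorylase and 14.9-fold for the debranching enzyme. In conidia the range of group means was 2.32-fold for the synthase, 2.79-fold for the branching enzyme, 3.68-fold for the debranching enzyme and 9.54-fold for the phosphorylase. In mycelia the synthase or the branching enzyme had the highest RPKM in every group. AN1015 was the lowest of the 4 by mean RPKM in control mycelia under both treatments, and AN10060 was the lowest in mycelia of Δ*atfA* and of Δ*atfA*Δ*atfB* under both treatments. In untreated Δ*atfA* mycelia AN1015 and AN10060 overlapped, so their order is not beyond their spread. Conidia had another order. The phosphorylase had the highest mean RPKM in Δ*atfA* and Δ*atfA*Δ*atfB* conidia under both treatments and the lowest in the control and also in libraries labelled Δ*atfB*. In the libraries labelled Δ*atfB* it overlapped the debranching enzyme under both treatments, so its lowest place there is not beyond the spread. On MSB the libraries of phosphorylase and synthase overlapped in conidia of Δ*atfA* and also of Δ*atfA*Δ*atfB*.

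**Figure D1:**
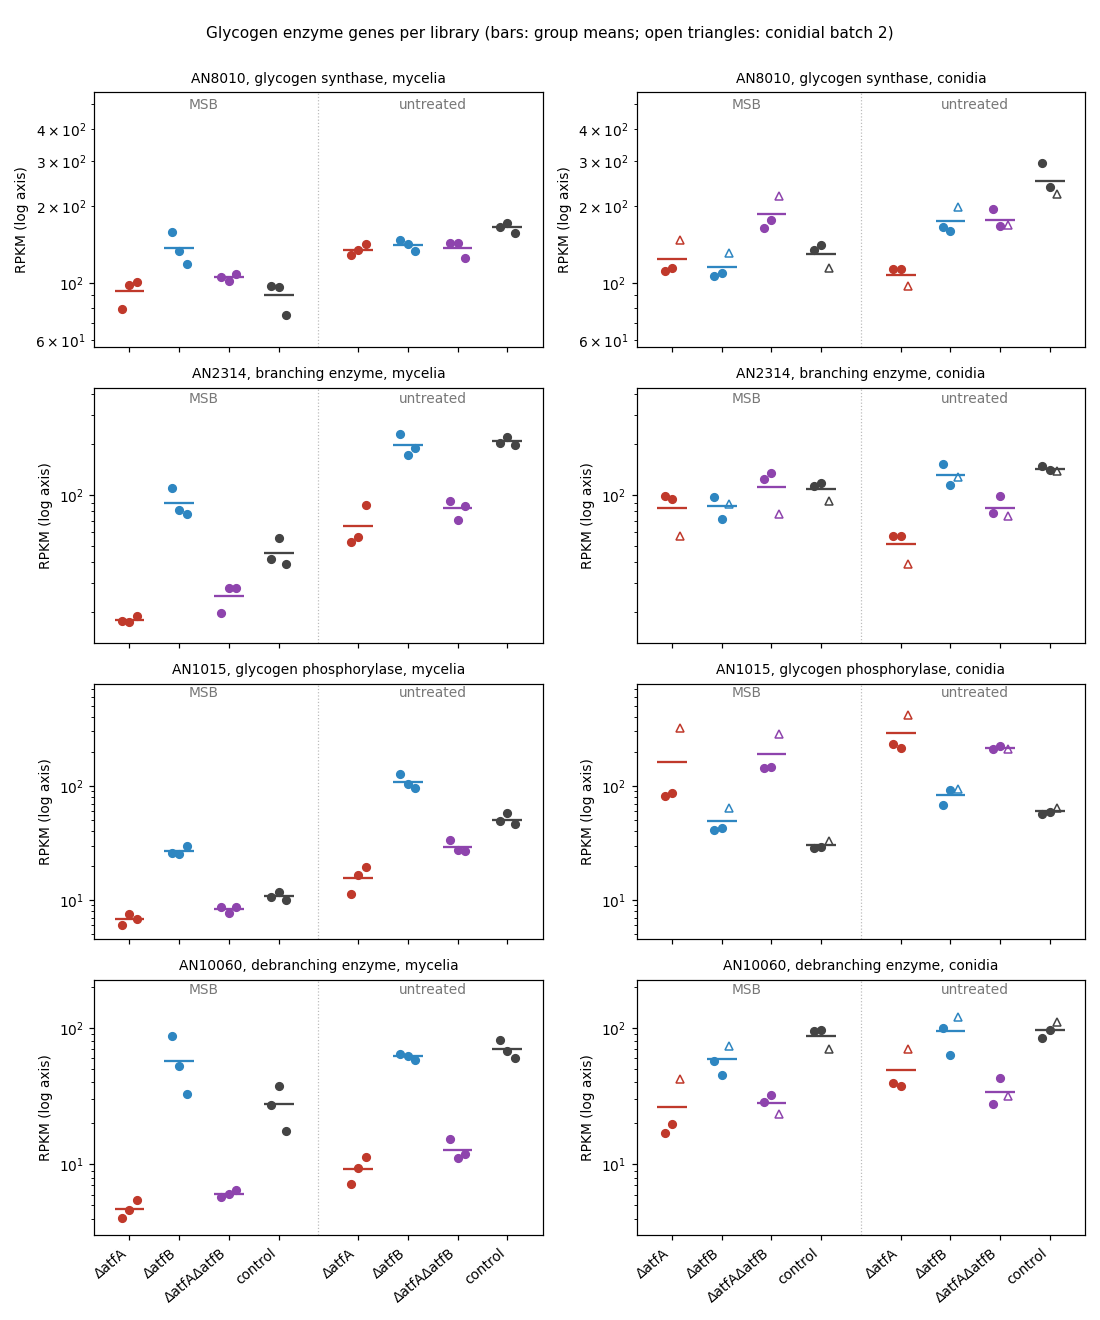
RPKM of the 4 genes (log axis) in each of the 48 libraries, mycelia on the left and conidia on the right, with MSB before untreated and the mutants before the control; bars are group means of 3 libraries and open triangles are conidial batch 2. AN8010 stayed between 75.2 and 172 RPKM in all mycelial libraries, and AN1015 was at least 81.5 RPKM in every Δ*atfA* and Δ*atfA*Δ*atfB* conidial library and at most 64.02 RPKM in every control conidial library.

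The strains were compared to find how the 4 genes depend on AtfA and AtfB. In mycelia, Δ*atfA* had less transcript of the enzymes other than the synthase, and the debranching enzyme fell furthest. A gene was called at an adjusted p below 0.05 in edgeR's quasi-likelihood test if its log2 fold change was also above 1 or below −1. Against the untreated control, 3 of the 4 genes were lower in Δ*atfA* mycelia, where 8.87% of the 9199 genes tested were lower, and 2 of 4 were lower in Δ*atfA*Δ*atfB* mycelia, where 4.79% of genes were lower. On MSB, 2 of 4 were lower in Δ*atfA* (6.01% of genes) and 1 of 4 in Δ*atfA*Δ*atfB* (3.04% of genes). The other genes were not called in these 4 comparisons. In Δ*atfB* mycelia 1 of 4 genes was higher untreated (2.4% of genes) and 2 of 4 were higher on MSB (2.03% of genes). The median log2 fold change of the 4 genes in Δ*atfA* mycelia was −1.001 on MSB and −1.65 untreated, while that of all genes tested was −0.011 on MSB and −0.0013 untreated. In Δ*atfB* mycelia the median of the 4 was 0.99 on MSB and −0.15 untreated, since untreated the 3 genes other than AN1015 had values a little below 0. Several comparisons share the control libraries, so their values are given side by side and are not independent of each other.

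The debranching enzyme gene AN10060 measured 7.20, 9.36 and 11.4 RPKM in untreated Δ*atfA* mycelia and 15.2, 11.1 and 11.996 RPKM in untreated Δ*atfA*Δ*atfB* mycelia, against 82.2, 67.9 and 60.01 RPKM in the untreated control. All 6 mutant libraries lay far below the 3 control libraries. Its log2 fold change was −2.88 ± 0.30 in Δ*atfA* (SE, edgeR adjusted p = 4.2e-07) and −2.40 ± 0.29 in Δ*atfA*Δ*atfB* (edgeR adjusted p = 9.2e-06). On MSB it measured 4.03, 4.59 and 5.52 RPKM in Δ*atfA* and 5.79, 6.07 and 6.43 RPKM in Δ*atfA*Δ*atfB*, against 27.4, 37.8 and 17.7 RPKM in the control. The groups were again apart, with log2 fold changes of −2.54 ± 0.30 and −2.19 ± 0.29. Δ*atfB* mycelia measured 65.1, 62.7 and 58.8 RPKM untreated, inside or next to the control's range, and differed from it by −0.20 ± 0.28 (edgeR adjusted p = 0.64). On MSB Δ*atfB* measured 88.1, 52.97 and 32.6 RPKM, with a coefficient of variation of 48.5%, the largest of this gene's mycelial groups. This log2 fold change of 1.03 ± 0.28 passed the test narrowly (edgeR adjusted p = 0.015). It was not called without Δ*atfB* replicate 1 (0.59, adjusted p = 0.12), without control replicate 1 or 3 (adjusted p = 0.051 and 0.075), or in a fit of the compared groups alone (adjusted p = 0.24).

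For the branching enzyme AN2314, untreated Δ*atfA* mycelia held 52.5, 56.6 and 87.6 RPKM and Δ*atfA*Δ*atfB* mycelia 92.3, 70.6 and 86.5 RPKM, against 204, 222 and 199 RPKM in the control. No mutant library reached the lowest control library, and the log2 fold changes were −1.64 ± 0.19 in Δ*atfA* (edgeR adjusted p = 7.8e-07) and −1.26 ± 0.18 in Δ*atfA*Δ*atfB* (edgeR adjusted p = 4.4e-05). On MSB the levels were 17.8, 17.5 and 19.04 RPKM in Δ*atfA* and 19.7, 27.99 and 27.8 RPKM in Δ*atfA*Δ*atfB*, against 41.7, 55.5 and 38.8 RPKM in the control. Both mutants were apart from the control, but only the Δ*atfA* value of −1.32 ± 0.19 passed the fold threshold, and that of Δ*atfA*Δ*atfB* was −0.86 ± 0.19 (edgeR adjusted p = 0.0026). Δ*atfB* mycelia held 110.6, 81.6 and 76.99 RPKM on MSB, all above the control, and differed from it by 0.95 ± 0.18 on the log2 scale (edgeR adjusted p = 0.0016), just under the threshold. It passed the threshold, at 1.02 to 1.11, when control replicate 2 or Δ*atfB* replicate 2 or 3 was left out. Untreated Δ*atfB* mycelia held 229, 173 and 189 RPKM, which overlapped the control (−0.11 ± 0.18).

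Glycogen phosphorylase was the gene on which the single mutants differed in sign in untreated mycelia. AN1015 measured 11.2, 16.7 and 19.4 RPKM in Δ*atfA*, 127, 103.4 and 96.4 RPKM in Δ*atfB* and 33.6, 27.7 and 27.1 RPKM in Δ*atfA*Δ*atfB*, against 48.8, 57.5 and 46.1 RPKM in the control. The 4 strains did not overlap, with Δ*atfB* above the control, Δ*atfA*Δ*atfB* below it and Δ*atfA* lowest. Against the control the log2 fold change was −1.67 ± 0.15 in Δ*atfA* (edgeR adjusted p = 1.4e-08), 1.07 ± 0.14 in Δ*atfB* (edgeR adjusted p = 3.2e-05) and −0.72 ± 0.14 in Δ*atfA*Δ*atfB* (edgeR adjusted p = 0.00061, under the fold threshold). Without Δ*atfB* replicate 1 the Δ*atfB* value was 0.96 and no longer past the fold threshold. On MSB the order was kept at lower levels. Δ*atfA* held 6.06, 7.52 and 6.77 RPKM, Δ*atfB* 25.9, 25.3 and 29.8 RPKM and Δ*atfA*Δ*atfB* 8.64, 7.76 and 8.72 RPKM, against 10.8, 11.9 and 9.95 RPKM in the control. Only the Δ*atfB* difference of 1.28 ± 0.15 was called (edgeR adjusted p = 1.3e-05), while Δ*atfA* differed by −0.68 ± 0.15 and Δ*atfA*Δ*atfB* by −0.39 ± 0.15.

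The synthase AN8010 was called in none of these mycelial comparisons. Untreated, it measured 129, 135 and 142 RPKM in Δ*atfA*, 147, 142 and 133 RPKM in Δ*atfB* and 143, 143 and 126 RPKM in Δ*atfA*Δ*atfB*, against 166, 172 and 158 RPKM in the control. Every mutant library was below every control library, by log2 fold changes of only −0.26, −0.26 and −0.20 (SE 0.10 each). On MSB Δ*atfB* held 159, 134 and 119 RPKM, against 97.9, 97.2 and 75.2 RPKM in the control, and the groups were apart (0.57 ± 0.10, edgeR adjusted p = 0.00076, under the fold threshold). Δ*atfA* (79.3, 98.6 and 101.3 RPKM) overlapped the control on MSB, and Δ*atfA*Δ*atfB* (106.3, 102.5 and 108.9 RPKM) lay just above it.

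The double mutant was also set against each single mutant. Against Δ*atfB* mycelia, 3 of the 4 genes were lower in Δ*atfA*Δ*atfB*, both on MSB (7.04% of genes lower) and untreated (7.41% of genes lower). AN10060 differed by −3.22 ± 0.30 on MSB and −2.20 ± 0.29 untreated, AN1015 by −1.66 ± 0.15 and −1.79 ± 0.14, and AN2314 by −1.81 ± 0.19 and −1.16 ± 0.18. Against Δ*atfA* mycelia, edgeR called none of the 4 on MSB (2.59% of genes called) or untreated (6.66% of genes called). In each of these comparisons 1 of the 4 had an unadjusted p below 0.05, and neither DESeq2 nor limma called any. After adjustment in edgeR only the untreated one stayed below 0.05. The nearest was AN1015 untreated, 0.94 ± 0.14 above Δ*atfA* (edgeR adjusted p = 4.8e-05), which reached 1.11 and was called without Δ*atfA* replicate 3.

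**Figure D2:**
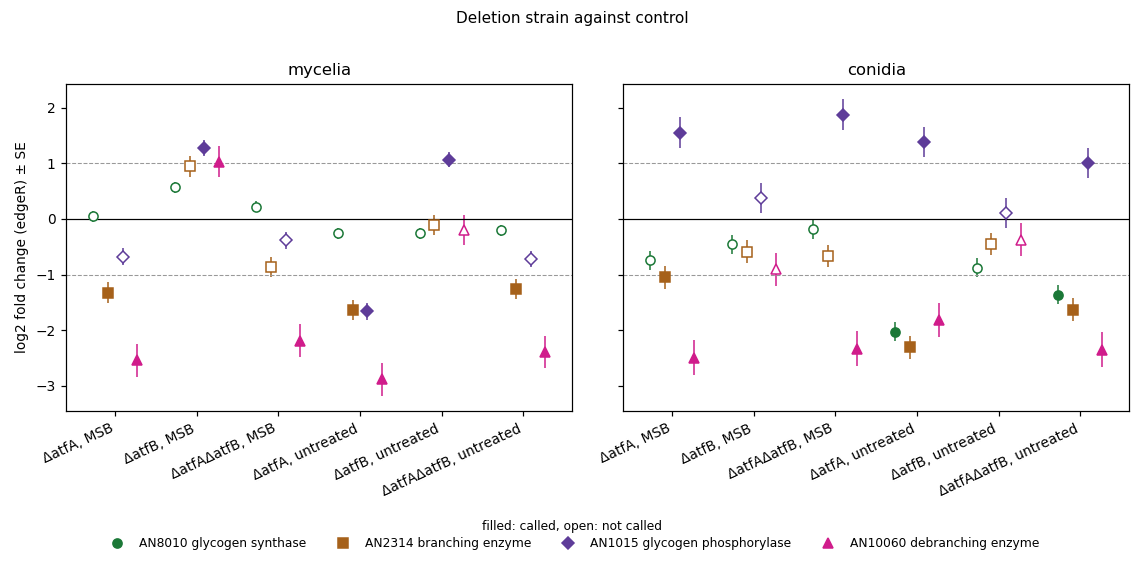
Log2 fold change of each mutant against the control for the 4 genes, mycelia left and conidia right, from edgeR with its SE (bars); filled symbols were called, open symbols were not, and dashed lines mark the fold threshold. AN10060 lies at −2.19 or lower in mycelia of Δ*atfA* and of Δ*atfA*Δ*atfB*, and AN1015 lies below 0 in these mutants in mycelia and at 1.00 or higher in conidia.

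MSB lowered the phosphorylase and the branching enzyme transcripts in mycelia of every strain. Against untreated mycelia, 2 of 4 genes were lower on MSB in Δ*atfA* (7.52% of genes lower), 2 of 4 in Δ*atfB* (6.97%), 3 of 4 in Δ*atfA*Δ*atfB* (6.09%) and 3 of 4 in the control (7.88%), and the others were not called. The phosphorylase fell by a log2 fold change of −1.19 ± 0.15 in Δ*atfA*, −1.97 ± 0.15 in Δ*atfB*, −1.84 ± 0.15 in Δ*atfA*Δ*atfB* and −2.18 ± 0.15 in the control. The branching enzyme changed by −1.83 ± 0.19 in Δ*atfA*, −1.09 ± 0.18 in Δ*atfB*, −1.75 ± 0.19 in Δ*atfA*Δ*atfB* and −2.15 ± 0.19 in the control. Its call in Δ*atfB* ended, at −0.98 and −0.99, without untreated replicate 1 or MSB replicate 3. The debranching enzyme was lower on MSB in Δ*atfA*Δ*atfB* (−1.09 ± 0.29, and −0.95 without untreated replicate 1) and in the control (−1.30 ± 0.28). Its value was −0.95 ± 0.29 in Δ*atfA*, called at −1.10 without untreated replicate 1 and at −1.08 without MSB replicate 3. In Δ*atfB* it was −0.06 ± 0.28, with the treated and untreated libraries overlapping. The synthase stayed under the fold threshold in every strain, with −0.52 ± 0.10 in Δ*atfA*, 0.00 ± 0.10 in Δ*atfB*, −0.40 ± 0.10 in Δ*atfA*Δ*atfB* and −0.82 ± 0.10 in the control.

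Whether the MSB effect differed between a mutant and the control was tested by the interaction of the deletion with MSB. For Δ*atfB*, 2 of 4 genes had a called, positive interaction in mycelia (2.87% of genes): AN2314 with 1.06 ± 0.26 on the log2 scale (edgeR adjusted p = 0.0083) and AN10060 with 1.23 ± 0.39 (edgeR adjusted p = 0.037). In words, these transcripts lost less on MSB in Δ*atfB* than in the control. Both were fragile: AN10060 was not called in 8 of the 12 fits that left out a library of the 4 groups nor in the fit of the compared groups alone (adjusted p = 0.12), and AN2314 stood under the threshold, at 0.87 to 1.00, in 4 of them. The synthase had an interaction of 0.83 ± 0.15 with the Δ*atfB* deletion (edgeR adjusted p = 0.00092), under the fold threshold. For Δ*atfA* edgeR called 0 of 4 (10.5% of genes called), with 2 at an unadjusted p below 0.05, and DESeq2 called 0. There AN1015, at 0.99 ± 0.21 (edgeR adjusted p = 0.0012), stood just under the threshold, and limma and scaling by totals alone called it at 1.04 and 1.02. Leaving out 1 of 6 different libraries also called it, at 1.01 to 1.16. For Δ*atfA*Δ*atfB* edgeR, DESeq2 and limma called 0 of 4 (3.87% of genes called), with 1 at an unadjusted p below 0.05.

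Some conidiophore marker transcripts moved with several of these mycelial groups. The summed level of *brlA*, *abaA* and *ivoB* had medians of 3.74 RPKM in Δ*atfA*, 75.04 RPKM in Δ*atfB* and 8.95 RPKM in Δ*atfA*Δ*atfB* mycelia on MSB, against 26.9 RPKM in the control on MSB. Untreated, the medians were 399, 320 and 213 RPKM in these mutants, against 120 RPKM in the control. The summed genes did not all move alike. In Δ*atfA*Δ*atfB* on MSB *abaA* averaged 7.52 RPKM, against 5.76 RPKM in the control. There *brlA* (0.696 against 2.47 RPKM) and *ivoB* (0.964 against 17.4 RPKM) were lower. Untreated, the sum was mostly *ivoB*, with 169 RPKM in Δ*atfA*Δ*atfB* against 130 RPKM in the control. *brlA* was at 14.3 against 15.1 RPKM and *abaA* at 2.50 against 1.74 RPKM. Of the 11 markers, 4 were lower in Δ*atfA* (6.01% of genes lower) and 4 in Δ*atfA*Δ*atfB* (3.04%) on MSB. In Δ*atfB* 2 were higher under each treatment (2.03% of genes higher on MSB and 2.4% untreated). In untreated Δ*atfA* mycelia 1 marker was higher and 1 lower (8.87% of genes lower), and in untreated Δ*atfA*Δ*atfB* mycelia 2 were lower (4.79%). On MSB against untreated, 4 markers were lower in Δ*atfA* (7.52% of genes lower), 4 in Δ*atfB* (6.97%), 3 in Δ*atfA*Δ*atfB* (6.09%) and 4 in the control (7.88%). In each strain other than Δ*atfB*, where 0 were, 1 was higher, and the shares of genes higher are not given here. The part of these cells in the results on the glycogen genes was not tested.

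In conidia the phosphorylase parted from the other enzymes. It was higher in Δ*atfA* and Δ*atfA*Δ*atfB* than in the control, while the debranching enzyme was lower, and in untreated conidia the synthase and the branching enzyme were lower too. In untreated conidia, 1 of the 4 genes was higher and 3 were lower in Δ*atfA*, where 18.4% of the 10143 genes tested were higher and 20.3% lower. The double mutant gave the same counts, with 15.8% of genes higher and 19.6% lower. On MSB, 1 was higher and 2 lower in Δ*atfA* (13.4% and 14.4% of genes), and 1 was higher and 1 lower in Δ*atfA*Δ*atfB* (14.9% and 15.1%). In the libraries labelled Δ*atfB* edgeR, DESeq2 and limma called none of the 4 on MSB (1.95% of genes called) or untreated (4.42% of genes called). Of the 4 genes, 3 had an unadjusted p below 0.05 there on MSB and 2 untreated. After adjustment in edgeR none on MSB and 1 untreated, AN8010, stayed below 0.05. The median log2 fold change of the 4 in Δ*atfA* conidia was −0.90 on MSB and −1.93 untreated, while that of all genes was 0.08 and 0.04. In Δ*atfA*Δ*atfB* conidia it was −0.43 on MSB and −1.497 untreated, while that of all genes was 0.07 and 0.06.

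AN1015 measured 234, 217 and 415 RPKM in untreated Δ*atfA* conidia and 212, 223 and 210 RPKM in Δ*atfA*Δ*atfB* conidia, against 57.1, 58.8 and 64.02 RPKM in the control. The lowest mutant library was more than 3 times the highest control library. The log2 fold change was 1.38 ± 0.27 in Δ*atfA* (edgeR adjusted p = 0.00021) and 1.00 ± 0.27 in Δ*atfA*Δ*atfB* (edgeR adjusted p = 0.0035). The second value sat on the threshold, and leaving out control replicate 3 or Δ*atfA*Δ*atfB* replicate 1 or 2 ended its call at 0.83 to 0.91, as did dropping the batch term (0.98) or fitting the compared groups alone (0.97). On MSB the gene measured 81.5, 86.4 and 319 RPKM in Δ*atfA* and 143, 148 and 284 RPKM in Δ*atfA*Δ*atfB*, against 28.3, 29.1 and 33.2 RPKM in the control. The batch 2 library was by far the highest of each of these mutant groups, and every mutant library was above every control library. The log2 fold change was 1.56 ± 0.28 in Δ*atfA* (edgeR adjusted p = 0.00012) and 1.88 ± 0.28 in Δ*atfA*Δ*atfB* (edgeR adjusted p = 1.4e-05). Within batch 1 these were 0.87 (edgeR adjusted p = 1.8e-05, no longer past the fold threshold) and 1.61, and untreated they were 1.16 and 1.05. Without Δ*atfA* MSB replicate 3 the Δ*atfA* value on MSB was 0.98, also under the threshold.

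The debranching enzyme AN10060 measured 39.3, 37.8 and 70.2 RPKM in untreated Δ*atfA* conidia and 27.6, 43.1 and 31.9 RPKM in Δ*atfA*Δ*atfB* conidia, against 85.1, 96.5 and 110 RPKM in the control. The groups were apart, with log2 fold changes of −1.83 ± 0.31 (edgeR adjusted p = 4.1e-05) and −2.35 ± 0.31 (edgeR adjusted p = 2.9e-06). On MSB it measured 17.1, 19.8 and 42.5 RPKM in Δ*atfA* and 28.9, 32.5 and 23.3 RPKM in Δ*atfA*Δ*atfB*, against 96.1, 96.3 and 70.5 RPKM in the control. Again no library overlapped, and the log2 fold changes were −2.50 ± 0.32 and −2.34 ± 0.31. Libraries labelled Δ*atfB* held 57.4, 45.6 and 73.96 RPKM on MSB, overlapping the control (−0.91 ± 0.30, edgeR adjusted p = 0.11). This difference was called within batch 1 and, at −1.18, without control replicate 3.

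Among the synthesis genes, AN8010 measured 113.4, 113.4 and 97.4 RPKM in untreated Δ*atfA* conidia and 195, 168 and 168 RPKM in Δ*atfA*Δ*atfB* conidia, against 294, 237 and 223 RPKM in the control. AN2314 measured 56.7, 57.3 and 38.8 RPKM in Δ*atfA* and 78.5, 98.5 and 74.7 RPKM in Δ*atfA*Δ*atfB*, against 149, 140 and 138 RPKM in the control. For both genes the mutants lay below the control, and Δ*atfA* was the lowest. In Δ*atfA* the log2 fold change was −2.03 ± 0.18 for AN8010 (edgeR adjusted p = 1.1e-08) and −2.31 ± 0.21 for AN2314 (edgeR adjusted p = 2e-08). In Δ*atfA*Δ*atfB* it was −1.36 ± 0.18 for AN8010 and −1.63 ± 0.21 for AN2314, and with scaling by totals alone −0.51 and −0.77, which ended both calls. Libraries labelled Δ*atfB* held 166, 160 and 199 RPKM of AN8010, below the control, at −0.88 ± 0.17 (edgeR adjusted p = 0.0029), and within batch 1 this was −1.08 and called.

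On MSB the synthesis genes differed less between the strains. AN8010 measured 111.5, 115 and 147 RPKM in Δ*atfA* and 164, 177 and 220 RPKM in Δ*atfA*Δ*atfB*, against 135, 141 and 115 RPKM in the control. Its log2 fold change in Δ*atfA* was −0.74 ± 0.17 (−0.07 with scaling by totals alone). In Δ*atfA*Δ*atfB*, whose RPKM were all above the control's, it was −0.19 ± 0.17, and with scaling by totals alone 0.52, so the sign depended on the scaling. AN2314 measured 99.2, 95.04 and 56.7 RPKM in Δ*atfA* and 124, 134 and 76.5 RPKM in Δ*atfA*Δ*atfB*, against 114, 118 and 92.4 RPKM in the control. These ranges overlapped in RPKM. The call of AN2314 in Δ*atfA*, at −1.05 ± 0.20 (edgeR adjusted p = 0.00029), ended with scaling by totals alone (−0.39), in limma (−0.41), within batch 1 (−0.93) and without Δ*atfA* replicate 3 (−0.88). In Δ*atfA*Δ*atfB* it differed by −0.67 ± 0.20, and by 0.03 with scaling by totals alone.

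Against the libraries labelled Δ*atfB*, untreated Δ*atfA*Δ*atfB* conidia had 2 of 4 genes lower (16.9% of genes lower), AN2314 at −1.18 ± 0.21 and AN10060 at −1.98 ± 0.31. The AN2314 call ended with scaling by totals alone (−0.66) and in limma (−0.65). AN1015 stood at 0.89 ± 0.27 (edgeR adjusted p = 0.0094) and was called with scaling by totals (1.38), in limma (1.37) and without Δ*atfA*Δ*atfB* replicate 3 (1.10). On MSB, AN1015 was higher by 1.49 ± 0.27 and AN10060 lower by −1.43 ± 0.30, where 11.1% of genes were higher and 12.8% lower. Against Δ*atfA* conidia, edgeR, DESeq2 and limma called none of the 4 in the double mutant on MSB (1.1% of genes called) or untreated (11.3% of genes called). With an unadjusted p below 0.05 there was 1 gene on MSB and there were 2 untreated, AN8010 at 0.66 ± 0.17 and AN2314 at 0.68 ± 0.20. After adjustment in edgeR the 2 untreated genes stayed below 0.05, under the fold threshold, and the gene on MSB did not.

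In conidia edgeR called an MSB effect only in the control strain, on the synthase and the phosphorylase. There 2 of 4 genes were lower on MSB (10% of genes lower), AN8010 by −1.05 ± 0.17 (edgeR adjusted p = 0.00033) and AN1015 by −1.09 ± 0.27 (edgeR adjusted p = 0.0057). AN8010 measured 135, 141 and 115 RPKM in control conidia on MSB and 294, 237 and 223 RPKM untreated, and AN1015 28.3, 29.1 and 33.2 RPKM on MSB and 57.1, 58.8 and 64.02 RPKM untreated, with no overlap for either. Both values lay near the fold threshold, and both calls ended with scaling by totals alone (−0.95 and −0.99), in limma, and without untreated replicate 1 or MSB replicate 3. In Δ*atfA* conidia edgeR and DESeq2 called none and limma 1 (15% of genes called). There 3 genes had an edgeR adjusted p below 0.05 but stayed under the fold threshold: AN2314 at 0.76 ± 0.20, AN1015 at −0.92 ± 0.27 and AN10060 at −0.88 ± 0.30. Both AN1015 and AN10060 were called within batch 1, at −1.37 and −1.01, and without MSB replicate 3, at −1.52 and −1.26, and AN1015 also in limma (−1.08) and in the fit of the compared groups alone (−1.02). In the libraries labelled Δ*atfB* edgeR, DESeq2 and limma called none (4.24% of genes called). There 4 had an unadjusted p below 0.05, and 2 stayed below it after adjustment in edgeR. The same tools called none in Δ*atfA*Δ*atfB* (1.1% of genes called), where 1 had an unadjusted p below 0.05 and none an adjusted p below it.

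**Figure D3:**
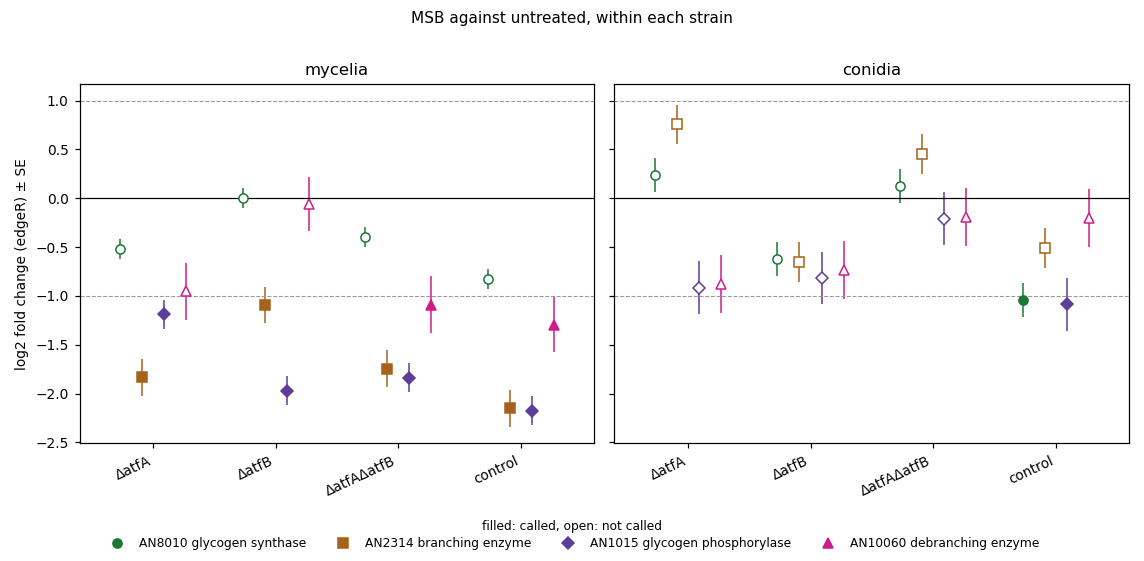
Log2 fold change of MSB against untreated within each strain, mycelia left and conidia right, from edgeR with its SE (bars); filled symbols were called and open symbols were not. In mycelia AN2314 and AN1015 lie at −1.09 or lower in every strain, and in conidia AN8010 and AN2314 lie above 0 in Δ*atfA* and Δ*atfA*Δ*atfB* and below 0 in the control.

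The MSB effect on the synthesis genes differed between mutant and control conidia. The interaction of MSB with the Δ*atfA* deletion was called and positive for 2 of 4 genes (4.37% of genes), AN8010 with 1.28 ± 0.24 (edgeR adjusted p = 0.0037) and AN2314 with 1.26 ± 0.29 (edgeR adjusted p = 0.01). With the Δ*atfA*Δ*atfB* deletion it was called for 1 of 4 (3.94% of genes), AN8010 with 1.17 ± 0.24 (edgeR adjusted p = 0.0092), which was 0.99 and not called within batch 1. AN2314 had 0.96 ± 0.29 there (edgeR adjusted p = 0.044), called at 1.01 within batch 1 and at 1.12 without Δ*atfA*Δ*atfB* MSB replicate 3. For the libraries labelled Δ*atfB* edgeR, DESeq2 and limma called 0 of 4 (0% of genes called), and none had an unadjusted p below 0.05. AN10060 had an interaction of −0.67 ± 0.42 with the Δ*atfA* deletion, and −1.02 and called within batch 1.

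Markers also differed between the conidial groups. The summed level of *brlA*, *abaA* and *ivoB*, conidiophore genes, had medians of 566 RPKM in Δ*atfA* and 527 RPKM in Δ*atfA*Δ*atfB* conidia on MSB, against 398 RPKM in the control on MSB. Untreated, it was 340 RPKM in Δ*atfA* and 278 RPKM in Δ*atfA*Δ*atfB*, against 94.8 RPKM in the control. Of the 11 markers, 2 were higher and 6 lower in untreated Δ*atfA* conidia (18.4% and 20.3% of genes). In untreated Δ*atfA*Δ*atfB* conidia 1 was higher and 5 lower (15.8% and 19.6%). None was called in the libraries labelled Δ*atfB* on MSB (1.95% of genes called) or untreated (4.42%). On MSB 1 was higher and 4 lower in Δ*atfA* (13.4% and 14.4%), and 1 higher and 5 lower in Δ*atfA*Δ*atfB* (14.9% and 15.1%). On MSB against untreated conidia, no marker was lower. In Δ*atfA* 6 markers were higher (15% of genes called in either direction), and 5 in the libraries with the Δ*atfB* label (4.24%). In Δ*atfA*Δ*atfB* 0 were higher (1.1% of genes called in either direction), and in the control 5, where 10% of genes were lower. The shares of genes higher alone are not given here. The part of the markers in the glycogen gene results was not tested.

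Ratios of transcripts within a library do not depend on how libraries are scaled. Synthase over phosphorylase is the RPKM of AN8010 divided by that of AN1015, and branching over debranching that of AN2314 divided by that of AN10060. In untreated mycelia the geometric mean of synthase over phosphorylase was 8.79 in Δ*atfA*, 1.30 in Δ*atfB* and 4.67 in Δ*atfA*Δ*atfB*, against 3.26 in the control. On MSB it was 13.7 in Δ*atfA*, 5.06 in Δ*atfB* and 12.7 in Δ*atfA*Δ*atfB*, against 8.27 in the control. The mean ratio on MSB exceeded that of untreated mycelia in each strain, and under both treatments the mean of Δ*atfA* exceeded that of the control, which exceeded that of Δ*atfB*. In conidia the mutant means were all below the control. In untreated conidia the ratio was 0.390 in Δ*atfA*, 2.09 in libraries with the Δ*atfB* label and 0.822 in Δ*atfA*Δ*atfB*, against 4.16 in the control, and on MSB it was 0.943, 2.38 and 1.02 in these mutants, against 4.30 in the control. Within Δ*atfA* conidia the log2 ratio on MSB was 0.45, 0.41 and −1.12, and untreated −1.05, −0.94 and −2.09, with batch 2 the lowest each time.

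Branching over debranching had higher means in Δ*atfA* and Δ*atfA*Δ*atfB* than in the control in all but 1 pair of groups. Its geometric mean in untreated mycelia was 6.96 in Δ*atfA*, 3.15 in Δ*atfB* and 6.53 in Δ*atfA*Δ*atfB*, against 3.00 in the control, and on MSB 3.87, 1.66 and 4.08 in these mutants, against 1.70 in the control. In untreated Δ*atfA*Δ*atfB* conidia it was 2.48, against 1.47 in the control. In conidia on MSB it was 3.34 in Δ*atfA*, 1.47 in libraries with the Δ*atfB* label and 3.88 in Δ*atfA*Δ*atfB*, against 1.241 in the control. The Δ*atfA* log2 ratios on MSB were 2.54, 2.26 and 0.42, with batch 2 the lowest, and their difference from the control was 1.43, but 2.13 within batch 1 and 2.09 without Δ*atfA* replicate 3. Untreated Δ*atfA* conidia were the exception, with a ratio of 1.07 against 1.47 in the control and log2 ratios of 0.53, 0.60 and −0.85 that overlapped the control's 0.80, 0.54 and 0.33. In all, 56 ratio comparisons were made, each 3 libraries against 3, for which the smallest two-sided exact permutation p is 0.1 and the smallest adjusted p was 0.144. No such test could reach 0.05. The libraries did not overlap in 13 of 14 mycelial and 9 of 14 conidial comparisons of synthase over phosphorylase, and in 10 of 14 mycelial and 7 of 14 conidial comparisons of branching over debranching.

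**Figure D4:**
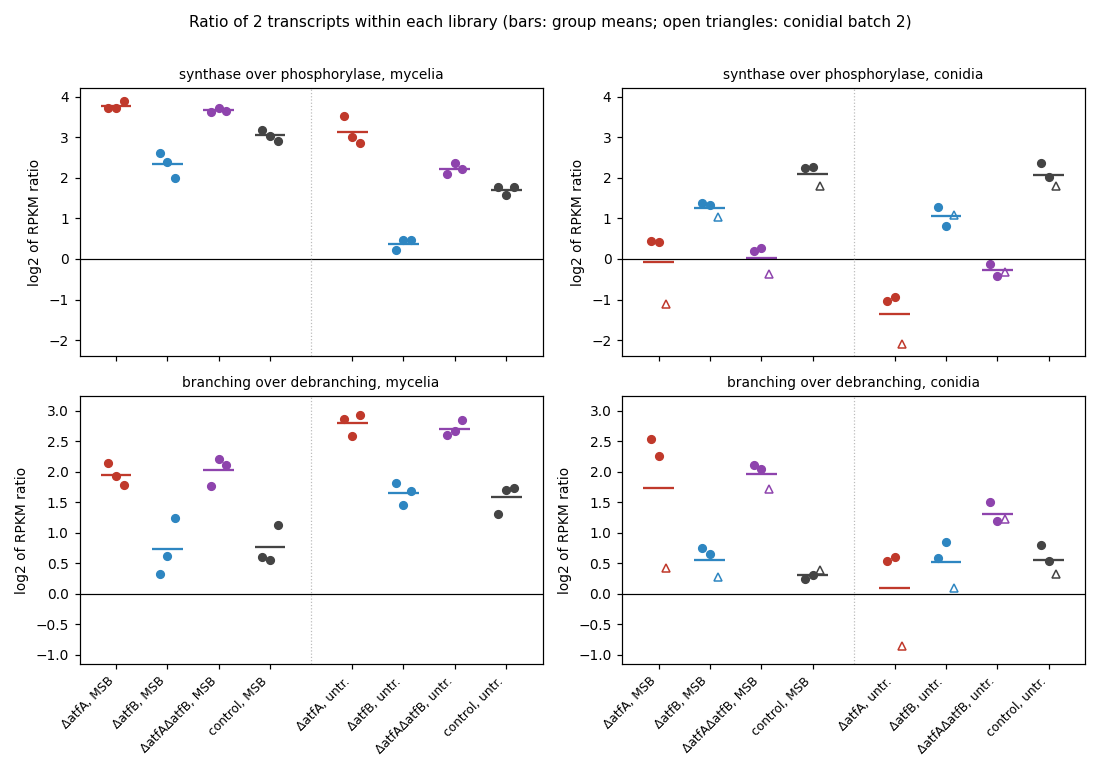
Log2 of 2 RPKM ratios in each library, synthase over phosphorylase above and branching over debranching below, mycelia left and conidia right; bars are means of 3 libraries, open triangles are conidial batch 2, and 0 means equal RPKM. Control conidia lie between 1.79 and 2.36 for synthase over phosphorylase, and untreated Δ*atfA* conidia between −2.09 and −0.94.

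The study sorts genes into sets by which mutants are lower than the control and by whether the double mutant is lower than each single mutant. Its set of genes dependent on AtfA but not AtfB holds those lower than the control in Δ*atfA* and in Δ*atfA*Δ*atfB* but not in Δ*atfB*, and lower in the double mutant than in Δ*atfB* but not than in Δ*atfA*. Applied to the edgeR calls, AN10060 met these conditions in mycelia and conidia under both treatments, where the study also places it in this set. AN2314 met them in untreated mycelia and untreated conidia only, and AN8010 and AN1015 in none of the 4 conditions. In conidia these sets rest on the libraries whose *atfB* level goes against their Δ*atfB* label. AN2314 also left the set in untreated conidia with scaling by totals alone and in limma, where its 2 differences of the double mutant, from the control and from the libraries labelled Δ*atfB*, were no longer called. Genes dependent on AtfA, with or without AtfB, made up 2.55% of genes tested in mycelia on MSB and 3.53% untreated, and 11.1% in conidia on MSB and 14.5% untreated. AN1015 could not enter these sets in conidia, since they hold genes that fall in the double mutant.

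The steps that lead from glucose to the synthase were covered by 5 other genes: the hexose kinases *glkA* (AN8689), *hxkA* (AN7459) and *hxkB* (AN2638), the phosphoglucomutase *pgmB* (AN2867) and *galF* (AN9148), which makes UDP-glucose. In mycelia, where *hxkB* was below the filter, none of the other 4 passed the fold threshold in a mutant against the control. The largest value was 0.74 ± 0.14 for *glkA* in Δ*atfA* on MSB (edgeR adjusted p = 0.00038). In conidia 4 of 5 were lower and none higher in Δ*atfA* and in Δ*atfA*Δ*atfB*, on MSB and untreated. Of all genes tested, 14.4% in Δ*atfA* and 15.1% in Δ*atfA*Δ*atfB* were lower on MSB, and 20.3% and 19.6% untreated. With scaling by totals alone 3 of the 5 were called in each case. These shares do not apply to that scaling, under which fewer of all genes were lower in untreated Δ*atfA* conidia, as given above. *galF* averaged 182 ± 47.2 RPKM in untreated Δ*atfA* conidia, against 734 ± 29.3 RPKM in the control (log2 fold change −2.84 ± 0.18). For *pgmB* the mean was 163 ± 22.2 RPKM in Δ*atfA*, against 416 ± 51.9 RPKM in the control (−2.16 ± 0.17). For *glkA* it was 119 ± 27.1 RPKM in Δ*atfA*, against 201 ± 15.3 RPKM in the control (−1.59 ± 0.15). *hxkB* was lowest, at 4 to 16 counts and 0.344 ± 0.189 RPKM in untreated Δ*atfA* conidia, against 234 ± 48.3 RPKM in the control (SD, n = 3 each). It was also lower in the libraries labelled Δ*atfB*, by −1.60 ± 0.35 on MSB and −1.79 ± 0.35 untreated. *hxkA* was not called, at −0.67 ± 0.17 in untreated Δ*atfA* conidia, and 0.13 with scaling by totals alone.

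Mycelia and conidia were fitted apart, since they differ in culture age and sequencing batch, and their levels are set side by side without a test. AN1015 averaged 289 ± 110 RPKM in untreated Δ*atfA* conidia and 15.8 ± 4.18 RPKM in untreated Δ*atfA* mycelia, a ratio of 18.3. In the untreated control it averaged 59.95 ± 3.62 RPKM in conidia and 50.8 ± 5.93 RPKM in mycelia, where the libraries overlapped. AN10060 was 5.26-fold higher in conidia than in mycelia of untreated Δ*atfA* and 1.39-fold in the untreated control. Over the 8 group means of log2 RPKM in mycelia, the 4 genes correlated with each other at Pearson r of 0.60 to 0.95, the highest between AN2314 and AN1015. Over the 8 conidial groups AN1015 correlated at −0.70 with AN10060, −0.58 with AN2314 and −0.04 with AN8010. These points share strains, treatments and batches and are a description.

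Genes whose pattern was most like each of the 4 were sought among 7789 genes, over the 16 group means centred within each cell type. For AN1015 they were AN2106 (r = 0.97), AN1719 (0.96) and AN7822 (0.96), and for AN10060 they were AN10368 (0.97), AN8086 (0.97) and AN2581 (0.94). AN2314 was most like AN4879 (0.92), AN9311 (0.92) and AN9296 (0.91). AN8010 had the weakest matches, AN10135 (0.81), AN12027 (0.79) and AN2646 (0.77). None of the 4 was among the best matches of another.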

How the data were processed

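Per the labels and the study's methods, single-end reads went through FastQC, and HISAT2 2.1.0 placed them on the genome of strain FGSC A4. The authors deposited a count of reads per gene and an RPKM value for 10988 genes in 48 libraries. The counting tool, annotation version and use of strand are not given in the sources used here, so reads of overlapping or antisense genes cannot be told apart. The authors computed RPKM with edgeR and called genes with DESeq2 1.24.0. The gene length column of the table was checked by recomputing RPKM, with a largest relative difference of 3.1e-14.

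The deposited counts of mycelia and of conidia went into separate edgeR 4.0.16 fits (quasi-likelihood, robust), with 8 groups, relative log expression factors and, in conidia, a batch term. A gene was tested if 3 or more libraries of the cell type reached 0.5 RPKM, with Benjamini-Hochberg adjustment over 9199 mycelial or 10143 conidial genes. The script was tested on simulated data. With 244 or more counts of each of the 4 genes in every library, counting error was small. Alternatives were TMM or totals alone, DESeq2 1.42.0, limma 3.58.1 on log2(RPKM + 0.1), no filter, only the groups compared, a replicate block, no batch term, batch 1 alone, each library left out and, added after seeing the data, conidial libraries labelled Δ*atfB* left out.

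The members and lists were chosen with earlier results of these data known. Named are the 4 genes, *atfA* and *atfB*, 5 supply genes, the marker list, and 3 genes per member with the highest Pearson correlation among genes tested in both cell types that reach a mean of 10 RPKM in a group. Names of *Aspergillus nidulans* genes came from the study's lists and a RefSeq table of assembly ASM1142v1, which matched all 4 genes and holds no product names, so no further glycogen genes were added. For AN10060 the study's list of genes dependent on AtfA in all cultures gives putative α-amylase in place of debranching enzyme. No coordinates or sequences are given.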

Additional observations from a re-analysis of the deposited data

Results flagged for a closer look

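The interaction of a deletion with MSB was called in edgeR for 5 results. In mycelia these were AN2314 (1.06 on the log2 scale) and AN10060 (1.23) with the Δ*atfB* deletion. In conidia they were AN8010 (1.28) and AN2314 (1.26) with the Δ*atfA* deletion and AN8010 (1.17) with the Δ*atfA*Δ*atfB* deletion.

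Other results went in opposite directions in the 2 cell types, with no overlap between the libraries compared in either cell type. The difference between the cell types was not tested. For glycogen phosphorylase AN1015 on MSB, Δ*atfA* differed from the control by −0.68 in mycelia and 1.56 in conidia, and Δ*atfA*Δ*atfB* by −0.39 and 1.88. Untreated, Δ*atfA* differed from the control by −1.67 in mycelia and 1.38 in conidia, and Δ*atfA*Δ*atfB* by −0.72 and 1.00. Against Δ*atfB*, the double mutant differed for AN1015 by −1.66 in mycelia and 1.49 in conidia on MSB, and by −1.79 and 0.89 untreated. For glycogen synthase AN8010 the double mutant on MSB differed from Δ*atfB* by −0.35 in mycelia and 0.27 in conidia, neither called. Conidial libraries labelled Δ*atfB* still held *atfB* transcript, which goes against their label, and the last 3 of these pairs rest on them.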

How the results depend on the processing

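Of 136 results on the 4 genes (each gene in each comparison and cell type) 51 were called, and none of the called results changed sign under any alternative run. Uncalled results changed sign 43 times over all alternatives. TMM scaling, DESeq2 and no filter on low values each kept all 136 on their side of the threshold, and leaving out the conidial libraries labelled Δ*atfB* kept all 44 results it could give. Totals alone ended 6 calls and added 2, limma ended 6 and added 3, and a fit of only the groups compared ended 3 and added 1. In conidia, dropping the batch term ended 1 of 68 and batch 1 alone ended 3 and added 6. Of 960 fits that left out a library, 28 ended a call and 17 added one.

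The number of the 4 genes called moved by over 1.5 times, or between 0 and a call, as follows. Only the groups compared gave 1 in place of 2 for mycelial Δ*atfB* against control on MSB and for its interaction, and 1 in place of 0 for MSB in Δ*atfA* conidia. Totals alone and limma each gave 1 in place of 0 for the mycelial Δ*atfA* interaction, 2 in place of 4 for untreated Δ*atfA*Δ*atfB* against control conidia, and 0 in place of 2 for MSB in control conidia, and limma gave 1 in place of 0 for MSB in Δ*atfA* conidia. Batch 1 alone gave 1 in place of 0 for libraries labelled Δ*atfB* against control conidia under either treatment, 1 in place of 3 for Δ*atfA* against control conidia on MSB, and 2 in place of 0 for MSB in Δ*atfA* conidia. Smaller moves were 3 in place of 4 for untreated Δ*atfA*Δ*atfB* against control conidia with only the groups compared or no batch term, 2 in place of 3 for Δ*atfA* against control conidia on MSB with totals alone or limma, and 3 in place of 2 for the conidial Δ*atfA* interaction in batch 1. The cause was not tested.

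Leaving out a library gave ranges in mycelia of 1 to 3 for Δ*atfB* against control on MSB and 0 to 1 untreated, 0 to 1 for untreated Δ*atfA*Δ*atfB* against Δ*atfA*, 1 to 2 for MSB in Δ*atfB*, 2 to 3 for MSB in Δ*atfA* and in Δ*atfA*Δ*atfB*, 0 to 1 for the Δ*atfA* interaction and 0 to 2 for the Δ*atfB* interaction. In conidia they were 1 to 3 for Δ*atfA* and 0 to 1 for libraries labelled Δ*atfB* against control on MSB, 3 to 4 for untreated Δ*atfA*Δ*atfB* against control, 2 to 3 for it against libraries labelled Δ*atfB*, 0 to 2 for MSB in the control and in Δ*atfA*, and 1 to 2 for the Δ*atfA*Δ*atfB* interaction. Ratios under RPKM + 1 moved by less than the larger SD of the groups compared, and those whose libraries did not overlap kept their direction. The same was seen within batch 1 and with a library left out, but these runs are no check of the ratios. With 3 libraries in a group, leaving out a library always moves the mean by less than the SD. Groups that do not overlap keep their direction in any subset of their libraries.

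Samples with the same replicate number correlated in their deviations from the group means at −0.25 to 0.19 in mycelia (13 of 84 pairs over 0.1) and −0.17 to 0.64 in conidia (39 of 84). The numbers do not pair the mycelial samples, and in conidia replicate 3 marks batch 2, which is already a term of the fit. In 61 of 168 mycelial and 95 of 168 conidial cases a sample correlated best with its own number. With the replicate number as a block all 136 results stayed on their side of the threshold.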
